A study of Ovis aries with 8 samples.

Results

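Pyruvate made by glycolysis in the cytosol is burned only after it has crossed the inner mitochondrial membrane and been converted to acetyl-CoA. A carrier built from *MPC1* and *MPC2* takes it in, and the pyruvate dehydrogenase complex converts it. The complex joins a pyruvate-decarboxylating enzyme of alpha (*PDHA1*) and beta (*PDHB*) chains, an acetyltransferase core (*DLAT*) and a dihydrolipoamide dehydrogenase (*DLD*). Pyruvate dehydrogenase kinases (here *PDK1*, *PDK2* and *PDK4*) phosphorylate the alpha chain and switch the complex off, and the phosphatase whose catalytic subunit is *PDP1* switches it on again. In muscle the kinases hold back carbohydrate oxidation during fasting, when fat is the main fuel.

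These 10 genes, named by symbol, were followed in longissimus thoracis, the loin muscle along the ribs, of castrated Dorper x Santa Inês crossbred lambs. All 10 were in the deposited count table of 11247 genes and all 10 were among the 9779 genes tested. The 2 groups were lambs on a control diet (CON) and lambs on a diet with 20% soybean molasses (SM20), a sugar-rich co-product of soy processing, with 4 lambs in each. The feeding trial held 20 lambs, 10 per diet, and those sequenced were drawn at random; the lambs' age and the length of feeding are not stated in the labels. The comparison asks how the diet altered transcripts in loin muscle, within a trial on carcass fat and lipid oxidation in the meat.

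Library totals ran from 8675527 to 11210065 counts. Of 9 skeletal muscle markers 8 were in the table, none was at 0, and their summed level was 85570 to 135202 CPM (counts scaled to library size by TMM) in CON and 107525 to 109377 CPM in SM20. Over all genes the quasi-likelihood test of edgeR placed 5 genes, 0.0511% of those tested, past an adjusted p of 0.05, and 18.3% had an unadjusted p under 0.05. In bulk muscle, fewer cells or fibres of a type and less RNA per cell cannot be told apart.

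None of the 10 genes passed the adjusted threshold by edgeR or by limma-voom, and 1 of them, *PDHB*, passed by DESeq2. Of all tested genes, 4.73% passed by DESeq2, and 2.09% passed as lower in SM20. The estimates within the pathway were mixed. *MPC1*, *MPC2*, *PDHB* and *PDK2* each had a mean 20.1% to 22.9% lower in SM20, with an unadjusted p under 0.05, whereas *PDHA1*, *DLAT*, *DLD*, *PDK1*, *PDK4* and *PDP1* did not reach that level. Those 4 lower genes of 10 stand beside 8.45% of all tested genes that were lower at an unadjusted p under 0.05, and 0 of the 10 were higher at that level beside 9.84%. The count of 4 was not stable: it was 1 with library size alone, 1 without CON lamb 1, 1 without SM20 lamb 1, 2 without CON lamb 4 or SM20 lamb 3, and 3 without any other single lamb. The median log2 fold change of the 10 was -0.05, against 0.01 for all tested genes, and 6 of the 10 were negative, against 49.3% of all genes. Single values ran from -0.37 for *MPC1* to 0.27 for *PDP1*.

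**Figure D1:**
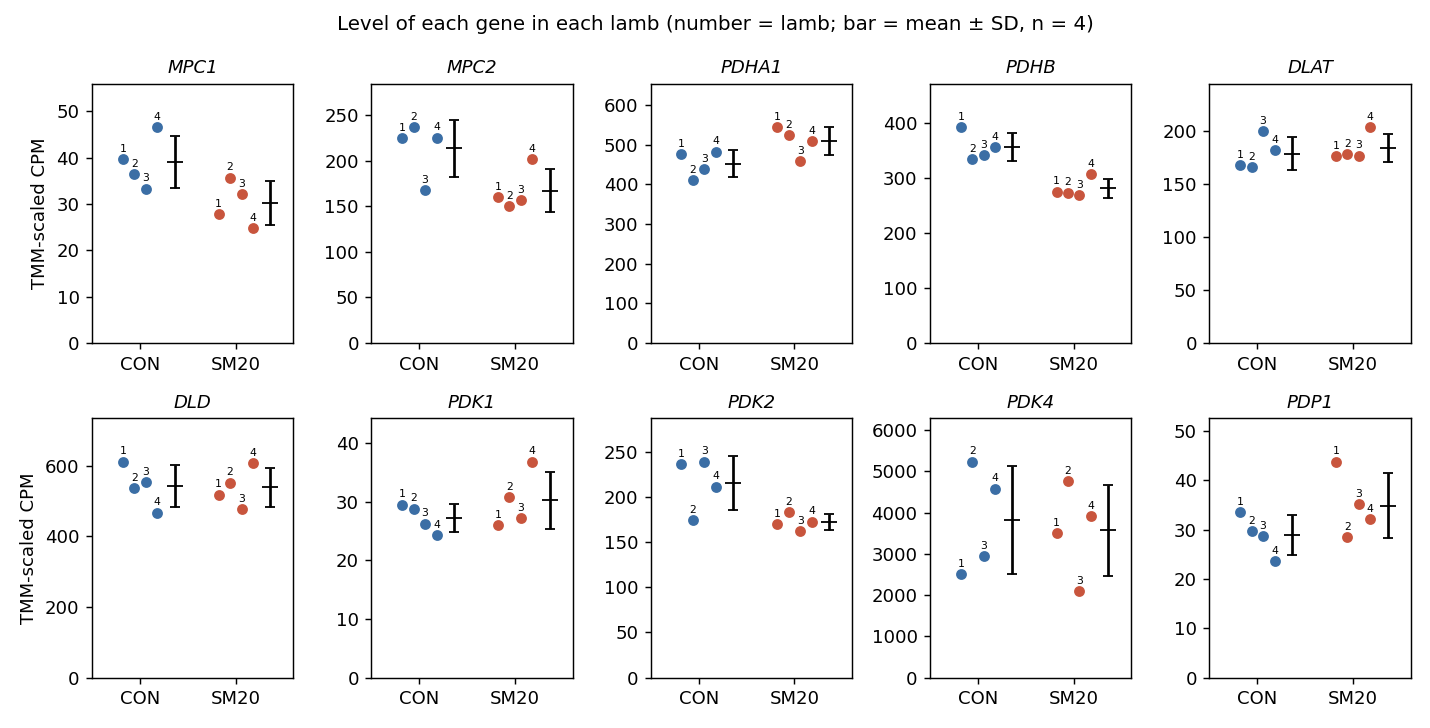
TMM-scaled CPM (vertical axis, from 0) of each of the 10 genes in each lamb, with blue points for CON and red points for SM20; the number is the lamb and the bar is the mean ± SD of 4 lambs. The points of *PDHB* separate by diet, from 335 to 393 CPM in CON and 269 to 308 CPM in SM20, while those of *PDK4* spread from 2095 to 5239 CPM over both diets.

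Both subunits of the pyruvate carrier had lower means in SM20. *MPC1*, an obligate partner of the carrier, was at 39.7, 36.5, 33.3 and 46.6 CPM in CON lambs 1 to 4. In SM20 lambs 1 to 4 it was at 27.8, 35.7, 32.1 and 24.8 CPM. The diets overlapped, since SM20 lamb 2 lay above CON lamb 3. The means were 39.0 ± 5.69 CPM in CON and 30.1 ± 4.77 CPM in SM20 (SD, n = 4 per diet), and the log2 fold change was -0.37 ± 0.15 (SE) with an adjusted p of 0.233 by edgeR. *MPC1* rested on 250 to 447 reads per library.

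*MPC2*, the other carrier subunit, was at 224.7, 237.1, 167.3 and 225.4 CPM in CON lambs 1 to 4. It was at 160.1, 150.4, 156.6 and 201.4 CPM in SM20 lambs 1 to 4. CON lamb 3 sat among the SM20 lambs, and SM20 lamb 4 stood apart from its group toward the CON values. The log2 fold change was -0.35 ± 0.15 (SE, n = 4 per diet), with a 95% interval from -0.68 to -0.03 and an adjusted p of 0.238 by edgeR. SM20 lamb 4 held the lowest *MPC1* and the highest *MPC2* level of its diet, so the MPC2 to MPC1 count ratio was 8.11 there and 4.22 to 5.76 in the other SM20 lambs.

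Among the catalytic subunits, *PDHB* was the gene whose diets did not overlap. It was at 393.4, 335.1, 341.4 and 357.0 CPM in CON lambs 1 to 4. In SM20 lambs 1 to 4 it was at 275.7, 273.4, 268.8 and 307.8 CPM, so that every SM20 lamb lay under every CON lamb. It was the 1 gene of the 10 with this separation, where 12.2% of all tested genes were separate in either direction and 5.67% were separate and lower in SM20. The means were 356.7 ± 26.1 and 281.4 ± 17.8 CPM (SD, n = 4 per diet), and the log2 fold change was -0.34 ± 0.11 (SE), with a 95% interval from -0.59 to -0.09. Its unadjusted p of 0.0117 ranked 722 among the 9779 genes, and its adjusted p was 0.158 by edgeR. DESeq2 gave an adjusted p of 0.0419 on the same genes, where 4.73% of all genes passed. It gave 0.0524 on the whole table without the minimum-count filter. DESeq2's own default filter on mean count applied in both fits.

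*PDHA1*, the alpha chain that carries the regulatory phosphorylation sites, was not lower. It was at 476.6, 410.8, 438.7 and 482.7 CPM in CON lambs 1 to 4, and at 545.3, 523.9, 459.3 and 510.0 CPM in SM20 lambs 1 to 4. SM20 lamb 3 lay within the CON range and the other SM20 lambs lay above it. The log2 fold change was 0.17 ± 0.12 (SE, n = 4 per diet), with a 95% interval from -0.08 to 0.43 and an adjusted p of 0.459 by edgeR. A mean more than 5.68% below that of CON was therefore outside the interval for *PDHA1*, whereas the interval for *PDHB* ran from 33.6% to 6.22% below.

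The core and the shared dehydrogenase had estimates close to 0. *DLAT* was at 167.4, 165.4, 199.3 and 181.9 CPM in CON lambs 1 to 4 and at 176.4, 177.9, 176.6 and 203.6 CPM in SM20 lambs 1 to 4. The log2 fold change was 0.04 ± 0.12 (SE), with a 95% interval from -0.21 to 0.30. *DLD*, which also serves the 2-oxoglutarate and branched-chain dehydrogenase complexes, was at 611.3, 536.5, 553.2 and 467.0 CPM in CON and at 517.7, 551.6, 476.5 and 608.1 CPM in SM20 lambs 1 to 4. The diets overlapped throughout, and its log2 fold change was -0.01 ± 0.13 (SE), with a 95% interval from -0.30 to 0.28. By edgeR the adjusted p was 0.888 for *DLAT* and 0.983 for *DLD*, and intervals of this width still allow a difference of about 20% in either direction for *DLD*, from 18.6% lower to 21.3% higher.

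**Figure D2:**
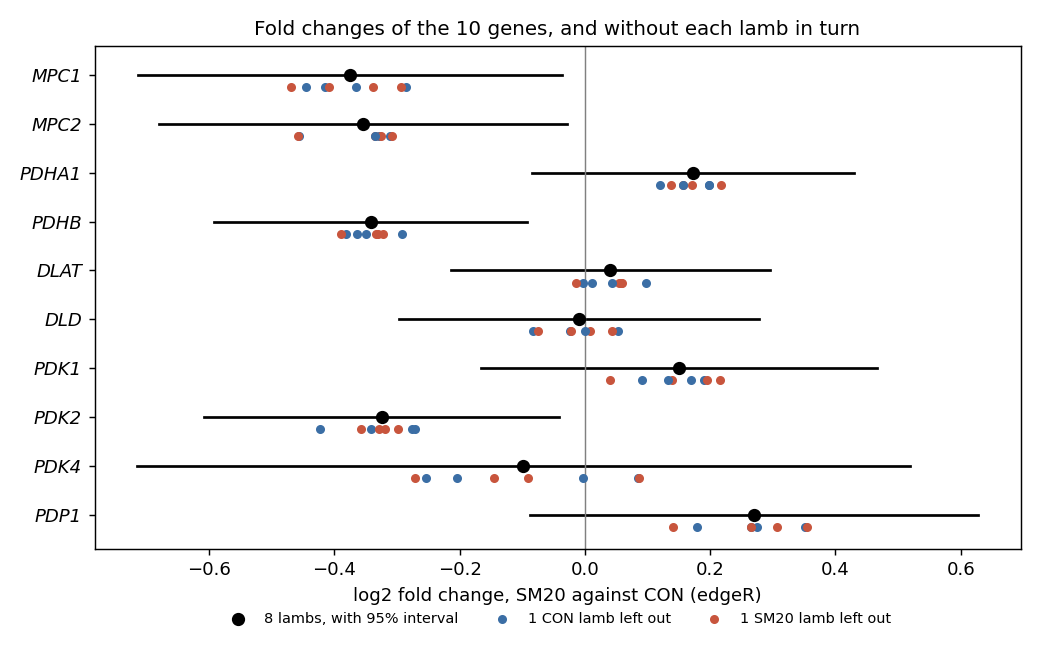
Log2 fold change of SM20 against CON (horizontal axis) for the 10 genes; black points and lines are the edgeR estimate from 8 lambs with its 95% interval, and small points are the estimates with 1 CON lamb (blue) or 1 SM20 lamb (red) left out. The intervals of *MPC1*, *MPC2*, *PDHB* and *PDK2* lie below 0, and the estimates of *DLAT*, *DLD* and *PDK4* cross 0 when single lambs are left out.

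The 3 kinases differed from one another. *PDK2*, the kinase found in most tissues, was at 236.6, 174.2, 239.2 and 211.4 CPM in CON lambs 1 to 4 and at 169.8, 183.2, 162.0 and 172.8 CPM in SM20 lambs 1 to 4. CON lamb 2 lay among the SM20 lambs, and the other CON lambs lay above all of them. The log2 fold change was -0.32 ± 0.13 (SE, n = 4 per diet), with an adjusted p of 0.218 by edgeR. Without CON lamb 2 it was -0.42, with an adjusted p of 0.128, the lowest that *PDK2* reached in any other setting tried.

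*PDK4*, the kinase that rises with fasting and fatty acid supply in muscle, varied among lambs more than it differed between diets. Its level was 2506, 5239, 2953 and 4582 CPM in CON lambs 1 to 4 and 3505, 4764, 2095 and 3912 CPM in SM20 lambs 1 to 4. The highest lamb of a diet exceeded the lowest by a factor of 2.09 in CON and 2.27 in SM20. The means were 3820.1 ± 1299.9 and 3569 ± 1114 CPM (SD, n = 4 per diet). The log2 fold change was -0.10 ± 0.28 (SE), the adjusted p was 0.889 by edgeR, and the 95% interval from 39.1% lower to 43.3% higher in SM20 leaves room for sizeable differences either way. The sign turned without CON lamb 2 (0.085) or without SM20 lamb 3 (0.087). With 18521 to 54105 reads per library, counting error was small beside this spread.

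The contrast in spread within the pathway was large. The SD of log2 CPM within a diet was 0.51 for *PDK4*, against a median of 0.19 over the 500 tested genes nearest to it in mean level, of which 91.6% varied less. For *PDHB* the SD was 0.10 and for *PDHA1* it was 0.11, with 5.20% and 8.40% of their 500 nearest genes varying less. *DLAT* (0.11) was similarly tight, and *PDP1* (0.24), *MPC1* (0.22) and *MPC2* (0.21) lay near the middle of genes of like level.

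*PDK1*, a kinase best known as a target of the hypoxia factor HIF1A, was at 24.3 to 29.5 CPM in CON and 26.0 to 36.9 CPM in SM20, with SM20 lamb 4 the highest. Its log2 fold change was 0.15 ± 0.14 (SE, n = 4 per diet), with an adjusted p of 0.620 by edgeR, and it was 0.040 without SM20 lamb 4. *PDP1*, the calcium-stimulated phosphatase of muscle that opposes the kinases, was at 33.6, 29.7, 28.7 and 23.7 CPM in CON lambs 1 to 4 and at 43.8, 28.4, 35.2 and 32.1 CPM in SM20 lambs 1 to 4. SM20 lambs 1 and 3 lay above every CON lamb, and the log2 fold change was 0.27 ± 0.16 (SE) with an adjusted p of 0.396 by edgeR. It was 0.14 without SM20 lamb 1 and 0.18 without CON lamb 4. *PDP1* rested on 227 to 467 reads per library.

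Ratios of 2 genes within a lamb need no scaling between libraries, and 15 such ratios were computed after the levels had been seen. They compare lambs with each other, not the amounts of 2 messengers, because transcript lengths differ. *PDHB* reads per *PDHA1* read were 0.825, 0.816, 0.778 and 0.740 in CON lambs 1 to 4 and 0.506, 0.522, 0.585 and 0.603 in SM20 lambs 1 to 4. The diets were far apart, with means of 0.790 ± 0.039 and 0.554 ± 0.048 (SD, n = 4 per diet), so the balance of the alpha and beta messengers differed by a factor of 0.700. Against *PDHA1*, 12.5% of all other tested genes were separate and lower in SM20, so this separation by itself was not rare.

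*PDK2* reads per 100 *PDHA1* reads also separated the diets, at 42.4 to 54.5 in CON and 31.1 to 35.3 in SM20. The share of 12.5% of other tested genes separate and lower against *PDHA1* applies here too. The ratio of *PDK4* to *PDHA1* did not separate the diets, at 5.26 to 12.8 in CON and 4.56 to 9.09 in SM20. *PDP1* reads per 100 *PDK2* reads, phosphatase against this kinase alone, were 11.2 to 17.1 in CON and 25.8, 15.5, 21.7 and 18.6 in SM20 lambs 1 to 4. SM20 lamb 2 lay within the CON range of that ratio and the other SM20 lambs lay above it. Against *PDK4* the diets overlapped, with 0.517 to 1.34 *PDP1* reads per 100 *PDK4* reads in CON and 0.597 to 1.68 in SM20.

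**Figure D3:**
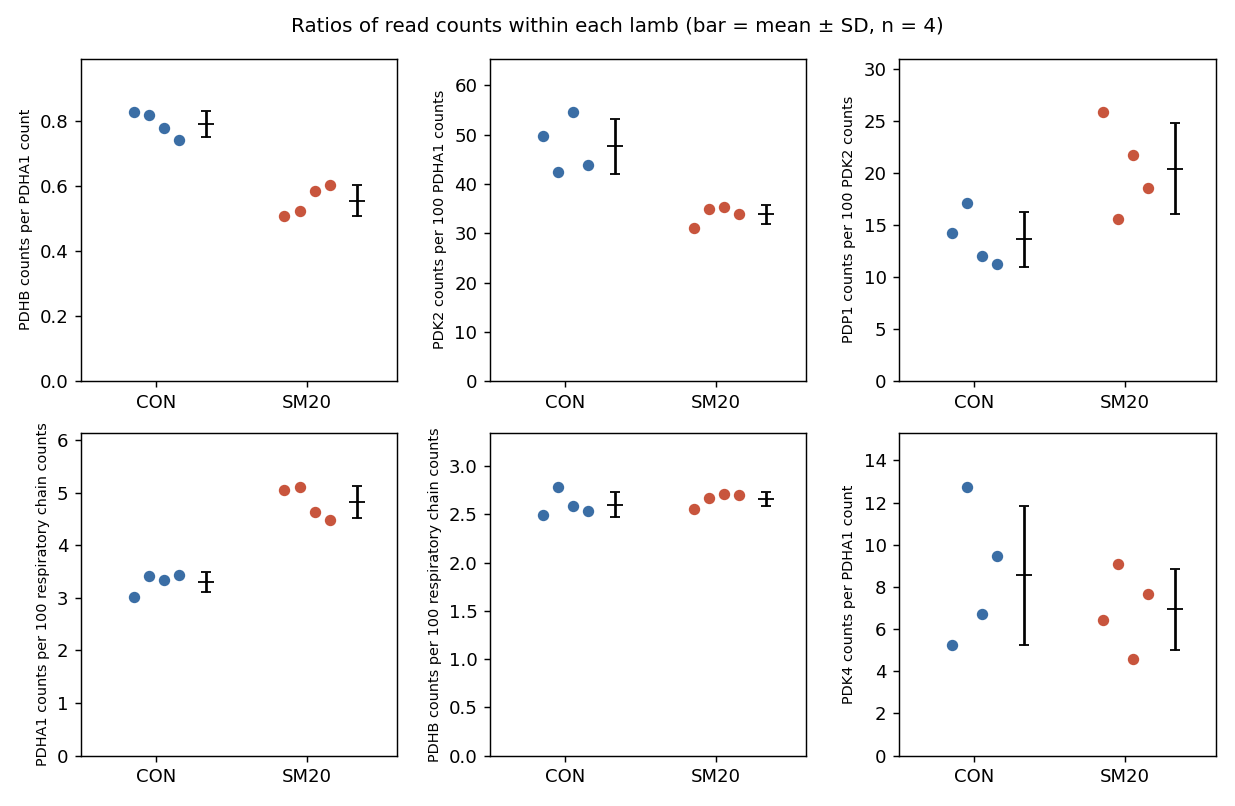
Ratios of read counts within each lamb (vertical axes, from 0), with blue points for CON, red points for SM20 and bars for the mean ± SD of 4 lambs. *PDHB* per *PDHA1* separates the diets (0.790 against 0.554 on average), *PDHB* per 100 respiratory chain reads does not (2.60 against 2.66), and *PDHA1* per 100 respiratory chain reads does (3.30 against 4.82).

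Set against genes of the respiratory chain and ATP synthase, together called chain genes here, *PDHA1* separated the diets and *PDHB* did not. Of the 22 nuclear-encoded chain genes listed, 18 were tested, and all 18 lay below 0 on the log2 fold scale (median -0.45), although 0 passed by edgeR. Of these 18, 14 were lower at an unadjusted p under 0.05, where 8.45% of all tested genes were. DESeq2 called 11 as lower, where it called 2.09% of all tested genes so. The level of *NDUFV1*, a complex I subunit, was 538.0 ± 92.7 CPM in CON against 299.9 ± 46.9 CPM in SM20 (SD, n = 4 per diet), with an adjusted p of 0.0815 by edgeR. *NDUFS7* of the same complex averaged 363.9 ± 50.7 and 232.0 ± 26.4 CPM, with an adjusted p of 0.0873.

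Per 100 summed reads of those chain genes, *PDHB* was at 2.49, 2.79, 2.59 and 2.54 in CON lambs 1 to 4 and at 2.55, 2.67, 2.71 and 2.71 in SM20 lambs 1 to 4, overlapping between the diets. *PDK2* and *MPC2* likewise overlapped on this measure, with means of 1.57 and 1.63 for *PDK2* and of 1.57 and 1.57 for *MPC2*. *PDHA1* was at 3.02, 3.42, 3.33 and 3.43 in CON and at 5.05, 5.11, 4.63 and 4.48 in SM20, a ratio of 1.46 between the diets with no overlap. Of the tested genes outside the chain, 23.4% were likewise separate and higher in SM20 on this measure. Within the pathway it was computed only for *PDHB*, *PDK2*, *MPC2* and *PDHA1*, so it does not single out *PDHA1* among the pathway's genes. Per *PDHA1* read, *DLAT*, *DLD*, *PDK4*, *PDP1* and *MPC2* overlapped between the diets, whereas *PDHB* and *PDK2* were separate. Of all other tested genes, 12.5% were separate and lower in SM20 per *PDHA1* read.

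Slow-fibre markers and mitochondrially encoded reads were measured beside these values. Of 11 tested slow-fibre genes, 10 lay below 0 on the log2 fold scale (median -0.56), 3 with an unadjusted p under 0.05 and 0 past the threshold by edgeR or DESeq2. Of all tested genes, 49.3% lay below 0 and 8.45% were lower at an unadjusted p under 0.05 by edgeR. The summed level of the slow-fibre genes was 11506 to 26691 CPM in CON and 11916 to 16551 CPM in SM20, highest in CON lamb 1 and lowest in CON lamb 4. When the slow-fibre level was a term of the fit, the log2 fold changes were -0.31 for *PDHB*, -0.33 for *PDK2*, -0.42 for *MPC1* and -0.30 for *MPC2*, whose unadjusted p was then 0.101. In that fit *PDP1* had 0.43 ± 0.15 (SE), up from 0.27, with an unadjusted p of 0.0146 and an adjusted p of 0.197 by edgeR, and 0 of the 10 genes passed. Reads of 11 mitochondrial-genome genes were 7.57% to 10.9% of all counts in CON and 6.01% to 8.11% in SM20, and their part in the result was not tested. Summed adipocyte markers (6 of 8 in the table, none at 0) were 15.4 to 80.6 CPM in CON and 32.6 to 65.3 CPM in SM20, and endothelial markers (8 of 8) were 449.7 to 646.2 and 401.3 to 594.4 CPM, so both overlapped between diets. The fast-fibre (10 of 13 in the table), fibroblast (8 of 8), immune (8 of 8), smooth muscle (5 of 5) and Schwann cell (5 of 5) sums overlapped as well. Gene by gene, 7 of 9 tested fast-fibre, 6 of 8 endothelial, 5 of 5 smooth muscle and 4 of 5 adipocyte markers lay below 0. So did 4 of 8 fibroblast, 3 of 8 immune and 1 of 4 Schwann cell markers.

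Genes around the complex were described from lists chosen with earlier results of these data known. In these lists 0 genes passed by edgeR over all genes. Of all tested genes, 49.3% had a negative log2 fold change. Of the complex's other partners, 6 of 9 were tested, with 3 negative and 3 positive. *PDPR*, the regulatory subunit of the phosphatase, was at 31.7 ± 3.53 CPM in CON against 42.0 ± 4.17 CPM in SM20 (SD, n = 4 per diet). Every SM20 lamb lay above every CON lamb, as was so for 640 of the 9779 tested genes. The log2 fold change of *PDPR* was 0.41 ± 0.13 (SE) and its adjusted p 0.148 by edgeR, so both phosphatase subunits had positive values and neither passed. *LIAS*, which makes the lipoyl group carried by *DLAT*, had -0.17 ± 0.12.

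In the cytosolic pyruvate list 7 of 10 genes were tested, 4 of them negative. *GPT*, alanine aminotransferase, which interconverts pyruvate and alanine, was at 83.8 to 135.7 CPM in CON and 63.9 to 85.1 CPM in SM20, and its log2 fold change was -0.59 ± 0.18 (SE, n = 4 per diet). It had an adjusted p of 0.133 by edgeR and 0.0462 by DESeq2 (0.0514 without the minimum-count filter). *PKM*, the last enzyme of glycolysis, had -0.24 ± 0.13. Of the other routes of pyruvate and acetyl-CoA, 10 of 10 were tested and 7 were negative, with a median of -0.31. There *ACAT1*, a mitochondrial thiolase, had -0.37 ± 0.14, and *ME3*, a mitochondrial malic enzyme, had -0.97 ± 0.45, which was -0.28 without CON lamb 1.

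The sister complexes, which share *DLD* or its chemistry, had 7 of 12 genes tested and all 7 negative, with a median of -0.20. *BCKDHB*, the beta chain of the branched-chain complex and the counterpart of *PDHB*, was at 55.4 ± 7.14 CPM in CON against 42.8 ± 7.06 CPM in SM20 (SD, n = 4 per diet). Its log2 fold change was -0.37 ± 0.15 (SE). *BCKDK*, the kinase of that complex and a relative of the pyruvate dehydrogenase kinases, had -0.29 ± 0.12. Their adjusted p by edgeR was 0.224 and 0.245.

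**Figure D4:**
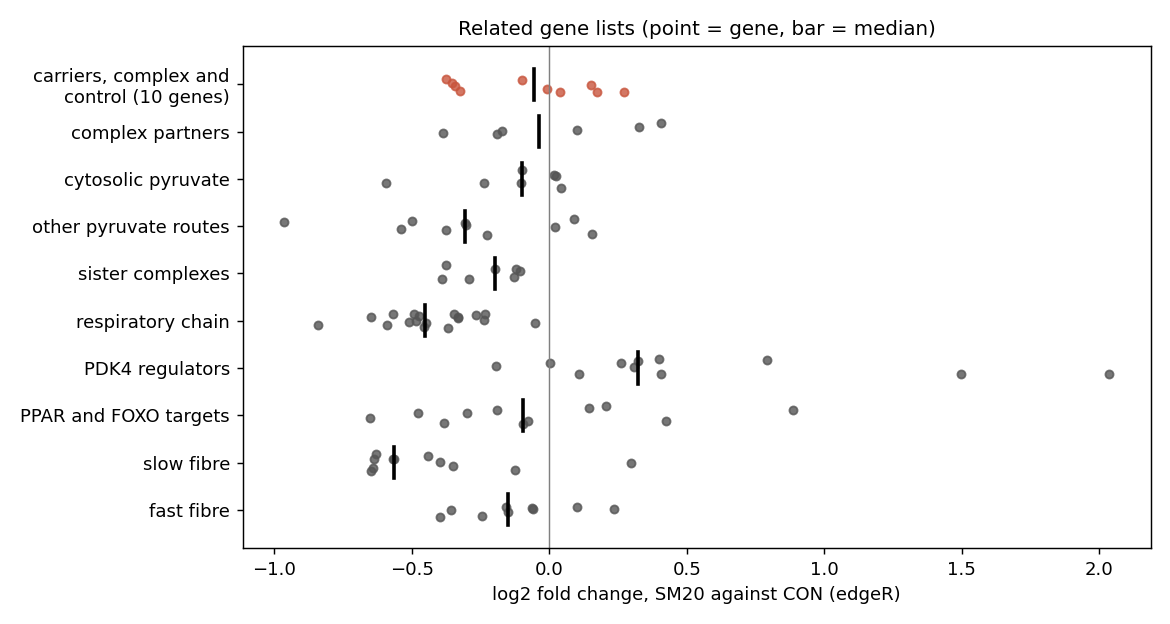
Log2 fold change of SM20 against CON by edgeR (horizontal axis) for each tested gene of the 10 genes (red) and of related lists (grey), with a bar at each median; vertical scatter within a list has no meaning. The respiratory chain (median -0.45) lies wholly below 0, and the *PDK4* regulators (median 0.32) lie mostly above it.

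Transcription factors and coactivators linked to *PDK4* control had the opposite balance. All 11 were tested and 10 were positive, where 4962 of all 9779 tested genes were. Their median log2 fold change was 0.32, and *PDK4* itself was at -0.10. Only 2 of the 11 were higher at an unadjusted p under 0.05 by edgeR, beside 9.84% of all tested genes. Some positive values were close to 0, such as *FOXO4* at 0.003. *NR3C1*, the glucocorticoid receptor, was at 53.9, 53.6, 46.7 and 55.3 CPM in CON lambs 1 to 4 and at 122.8, 86.9, 71.3 and 82.0 CPM in SM20 lambs 1 to 4. The diets did not overlap, and 640 of the 9779 tested genes were likewise separate and higher in SM20. The log2 fold change of *NR3C1* was 0.79 ± 0.17 (SE), with an adjusted p of 0.0871 by edgeR and 0.00316 by DESeq2. *ESRRG*, an orphan nuclear receptor of oxidative muscle, was at 5.09 to 15.9 CPM in CON and at 125.3, 47.9, 20.5 and 17.6 CPM in SM20 lambs 1 to 4. Its log2 fold change of 2.04 ± 0.59 (SE, adjusted p = 0.127 by edgeR) was 1.15 without SM20 lamb 1.

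Genes that share PPAR or FOXO control with *PDK4* were mixed, with 11 of 12 tested and 7 negative. *ACADVL*, the first enzyme of long-chain fat oxidation in mitochondria, had -0.30 ± 0.13 (SE). *FBXO32*, a muscle atrophy ubiquitin ligase, was at 731.4, 551.3, 99.3 and 228.2 CPM in SM20 lambs 1 to 4, and its log2 fold change was 0.89 ± 0.50 (SE), or 0.43 without SM20 lamb 1 and 0.58 by limma-voom. The adjusted p was 0.247 and 0.368 by edgeR.

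Whether gene products that work together varied together over the 8 lambs was examined in 5 pairs. Pearson's r of log2 CPM was -0.45 for *PDHA1* with *PDHB* (rho = -0.31), 0.44 for *MPC1* with *MPC2* (rho = 0.52) and -0.46 for *PDK4* with *PDP1* (rho = -0.60). It was -0.10 for *PDHB* with *DLAT* (rho = -0.05) and 0.20 for *DLAT* with *DLD* (rho = 0.10). By exact permutation of the pairings, two-sided, p for r was 0.261, 0.277, 0.251, 0.798 and 0.638 in that order, and p for rho was 0.462, 0.197, 0.132, 0.935 and 0.840. None passed after Benjamini-Hochberg adjustment over the 5 pairs (0.461, 0.461, 0.461, 0.798 and 0.798 for r, and 0.770, 0.492, 0.492, 0.935 and 0.935 for rho). Within the diets, with diet means removed, *PDHA1* and *PDHB* had r = 0.51 (permutation p = 0.188, adjusted 0.562), the reverse of the sign over all lambs. *MPC1* with *MPC2* also reversed, at r = -0.10 (permutation p = 0.814, adjusted 0.814), as did *PDHB* with *DLAT* at 0.20. The sign held for *DLAT* with *DLD* (0.21) and *PDK4* with *PDP1* (-0.48). These p-values are approximate, because the centred values were permuted across both diets and not within each. Without the 2 lambs farthest from the median of the first gene, r in the same order was -0.31, 0.64, -0.39, 0.14 and -0.69.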

How the data were processed

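The table deposited by the authors holds raw read counts by gene symbol in 8 libraries, not normalized. Per the submitters' processing notes, Trim Galore, cutadapt, STAR, featureCounts and DESeq2 were used; their versions, the build, the annotation and the strand setting are not stated there or in the labels, so overlapping and antisense reads may not be told apart. Per the labels' protocols, the libraries were TruSeq Stranded mRNA. A deposited sheet gave the labelled diet for all 8 libraries. Lamb numbers follow accession order and pair nothing. The 10 symbols are all in the RefSeq annotation of ARS-UI_Ramb_v3.0.

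Diets were compared by edgeR's quasi-likelihood F-test (edgeR 4.0.16, R 4.3.3) with diet as the only term, TMM factors and a minimum count of 10, which left out 1468 genes holding 0.0735% of counts. P-values are two-sided, with Benjamini-Hochberg adjustment over 9779 genes and a threshold of 0.05. The SE is the log2 fold change divided by the square root of F, and 95% intervals use the test's degrees of freedom. Levels are TMM-scaled CPM, and log2 CPM used a prior count of 2. The test was also run on simulated counts, whose outcome is not used as support here. DESeq2 (1.42.0) and limma-voom (limma 3.58.1), other scalings, no filter, a slow-fibre covariate and leaving out each lamb were the alternatives. All 10 genes are named, and from each of 7 related lists the genes past the threshold or otherwise the 2 with the smallest p. The members and lists were chosen with earlier results of these data known. No transcript lengths were used, so levels of different genes are not compared. For *PDK4*, spread between lambs, more than depth, limits the precision. For the other genes, counting error and spread between lambs were not separated.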

Additional observations from a re-analysis of the deposited data

Results flagged for a closer look

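Within the 48 groups of 4 lambs formed by the 24 genes named above and the diets, 3 had 1 lamb whose gap to the nearest other lamb, as a share of the group's range, exceeded Dixon's 95% critical value, where chance gives about 5% of groups. *DLAT* was at 203.6 CPM in SM20 lamb 4 and at 176.4 to 177.9 CPM in the other SM20 lambs. *ESRRG* was at 5.09 CPM in CON lamb 1 and at 14.8 to 15.9 CPM in the other CON lambs. *ME3* was at 14.0 CPM in CON lamb 1 and at 3.34 to 4.55 CPM in the other CON lambs.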

How the results depend on the processing

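Of the 10 genes, 7 kept the sign of their fold change in all 16 other settings; *DLAT*, *DLD* and *PDK4* did not. *DLAT* was -0.019 with the slow-fibre covariate and -0.014 to 0.097 with 1 lamb left out; *DLD* was 0.046 with library size alone, 0.062 with the covariate and -0.082 to 0.054 with 1 lamb left out; *PDK4* was -0.27 to 0.087 with 1 lamb left out. The count of the 10 genes past the threshold was 0 everywhere except 1, *PDHB*, with DESeq2 on the filtered table. Their median log2 fold change ran from -0.15 to 0.051 with 1 lamb left out, the positive value without SM20 lamb 3. The 5 calls over all genes became 1 with median-ratio factors and 1 with upper-quartile factors. They became 0 without a filter, with the slow-fibre covariate and with limma-voom. With 1 lamb left out they were 0 in every fit (1476 to 1876 genes at an unadjusted p under 0.05 by edgeR). DESeq2 gave 463, and 407 without the minimum-count filter, an alternative added once the data were seen. The cause of these changes was not tested. Library size alone moved the median of all genes to 0.055. Correlations changed sign for *PDHA1* with *PDHB* (0.51 with diet means removed), *PDHB* with *DLAT* (0.19 with library size alone, 0.20 with diet means removed, 0.14 without the 2 farthest lambs), *DLAT* with *DLD* (-0.69 without the 2 farthest lambs) and *MPC1* with *MPC2* (-0.10 with diet means removed). No paired analysis was possible because the labels give no numbers shared between diets.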

Other observations

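The level of *PDK4* over the 8 lambs was set against each of the 22 tested regulators and PPAR or FOXO targets, a set of relations looked at after its spread between lambs had been seen. *ANGPTL4*, a secreted inhibitor of lipoprotein lipase that is also induced by fasting and fatty acids, had Pearson's r = 0.79 and rho = 0.81 with *PDK4* (exact permutation p = 0.0194 and 0.0218, adjusted over the 22 relations 0.426 and 0.479). With diet means removed r was 0.81, and without the 2 lambs farthest from the median of *PDK4*, CON lamb 1 and SM20 lamb 3, it was 0.59 (exact permutation p = 0.232). Leaving out the most extreme lambs also narrows the range of *PDK4*, so the lower r cannot tell whether the relation rests on them. The other 21 relations had an unadjusted exact permutation p for r above 0.05, among them *UCP3* (r = 0.50), *TXNIP* (r = 0.51), *PPARA* (r = -0.55) and *NR3C1* (r = 0.09).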
